A study of Mus musculus with 32 samples.

Results

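The comparison described here sets the monocyte graft against its colonic progeny 4 days after transfer, and takes 6 of the 32 samples of the series: 3 libraries of sorted bone marrow (BM) monocytes and 3 libraries of graft-derived macrophages sorted from the colon. The members were chosen by their labels alone, as the libraries named for monocytes and the libraries named for colon at day 4 within the table of [CD11c-DTR > WT] recipients, which holds 26 libraries. The graft came from untreated CX3CR1-GFP heterozygous CD45.1 mice on the C57BL/6J background, so that 1 of the Cx3cr1 alleles carries GFP, and was sorted as CD117- CD11b+ CD115+ Ly6C+ GFPint cells. The recipients were irradiated wild-type mice rebuilt with BM of Itgax-DTR/GFP transgenic donors (line 57Lan), in which the CD11c (Itgax) promoter drives the receptor of diphtheria toxin (DTx), and they received DTx before and after the transfer. The labels give the gate of the day 4 cells as DAPI- CD45+ CD11b+ CD64+ Ly6C- MHCII+, and the study's methods add CD45.1 and GFP, which tell graft-derived cells from the CD45.2 cells of the host, in which DTx acts on cells that express the Itgax transgene. The GEO labels name blood as the organ of the graft and give the Itgax-DTR genotype and C57BL/6J strain to all 6 samples, whereas the study's methods describe marrow. The 2 groups therefore differ in organ, in DTx exposure, in the enzymatic and mechanical preparation of the tissue and in time, and these cannot be told apart. Surface Ly6C and MHCII entered the gates, so the fall of Ly6c2 and the rise of H2-Ab1 are not independent of the sort.

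Ly6C+ classical monocytes leave the marrow with transcripts for migration, adhesion and antimicrobial granule proteins, the latter inherited from granulocyte and monocyte progenitors. In the gut wall they lose Ly6C, gain MHC class II and become macrophages that take up dying cells and produce complement C1q. C1q is the recognition molecule of the classical complement cascade and is built from A, B and C chains, encoded by C1qa, C1qb and C1qc. The colon wall also holds epithelial cells with keratins and claudins, mucus-producing goblet cells, fibroblasts and plasma cells, whose RNA can enter a sorted sample.

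The 6 libraries held between 1951932 and 3639328 reads on genes, and the grafts had 68.7 to 70.5% of their mapped reads on exons against 57.9 to 62.7% in the colon day 4 libraries. Reads of the ribosomal RNA repeat Rn45s were 8589, 13989 and 26789 normalized reads (reads per 10000000 mapped) in graft replicates 1, 2 and 3 and 42960.5, 97179.5 and 135154 in colon day 4 replicates 1, 2 and 3, an order of libraries used throughout. Colon day 4 replicates 1 and 3 carry the date that follows graft replicate 1 by the stated interval, and colon day 4 replicate 2 follows graft replicate 2. Nothing in the labels says whether the libraries of one group came from separate animals or pools. The p-values therefore measure the spread between libraries, which may be technical, and that spread was estimated over 25 libraries in 7 groups. With the graft and colon day 4 fitted alone, 3771 of 10259 genes were higher and 3068 lower.

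The transcriptome differed between graft and colon at most expressed genes. Of 11842 genes tested with edgeR's quasi-likelihood test (adjusted p under 0.05), 4252 (35.9%) were higher and 2897 (24.5%) lower at day 4, and 3756 and 2247 of these differed by 2-fold or more. Over all tested genes the median change was 0.21 on the log2 scale. The genes that were higher took 11.8 to 12.4% of the reads on genes in the grafts and 52.4 to 53.1% in the colon, and the genes that were lower took 49.0 to 50.4% and 11.4 to 11.8%. Of the 4252 higher genes, 1745 (41.0%) had 3 counts or fewer in every graft library, whereas 72 of the lower genes were that scarce in every colon library. For such genes a fold is given as a lower bound, the mean of the higher group over the mean level that 3 counts stand for in the other group, and like all counting limits it covers counting error only. Genes that fell by less than the RNA shared by leukocytes changed sign when libraries were scaled to pan-leukocyte genes, as given after the lists. The colon libraries lay wholly above the grafts at 34.2% of tested genes and wholly below them at 38.6%.

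**Figure D1:**
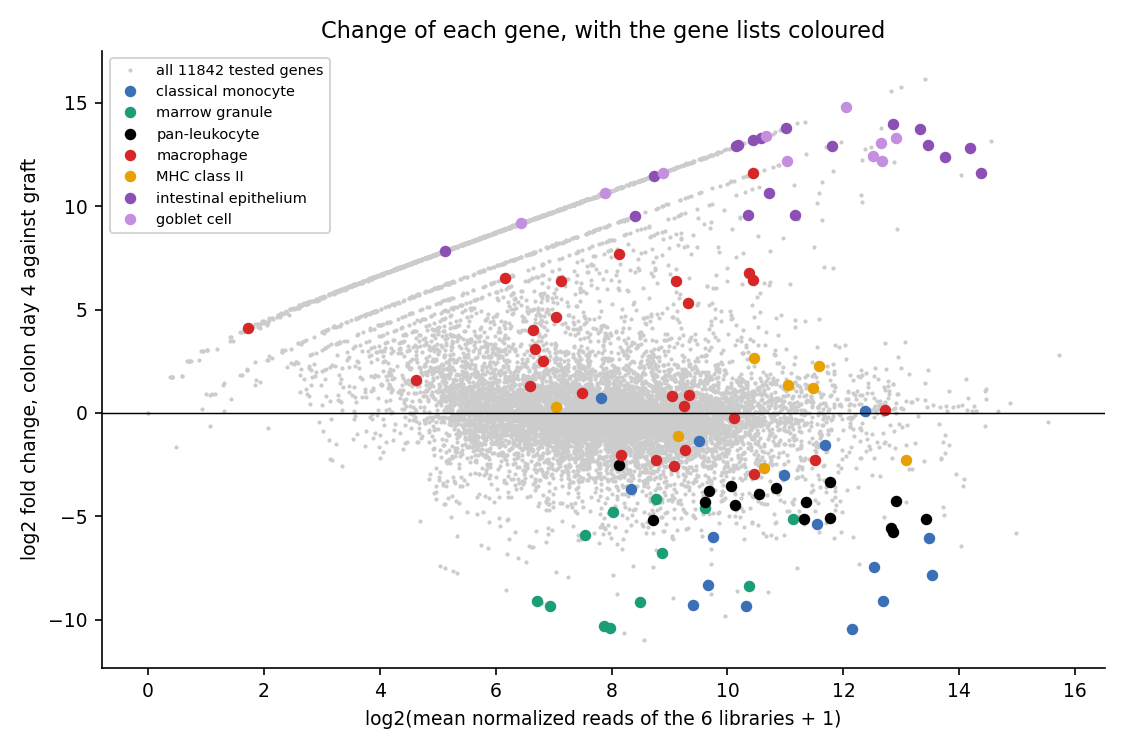
Log2 fold change of colon day 4 against graft (vertical axis, edgeR) over log2 of the mean normalized reads of the 6 libraries plus 1 (horizontal axis), with 1 point for each of 11842 tested genes and 7 gene lists in colour. The straight bands at the upper left are genes with few or no counts in the grafts, and the epithelial and goblet cell genes lie in or next to them, above most of the macrophage genes.

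Transcripts of classical monocytes fell. Of 16 monocyte genes, 14 fell and none rose (24.5% of all tested genes fell and 35.9% rose), with a median log2 fold change of -6.01, and their summed level was 113436, 120469 and 95926 normalized reads in the grafts and 8292, 8968 and 6133 at day 4. Ly6c2, which encodes the Ly6C antigen of the gate, had 26717, 20738 and 23435 normalized reads in the grafts and 95.0, 107 and 46.8 in the colon day 4 libraries, and the groups were far apart (log2 fold change -7.82 ± 1.10 (SE), adjusted p = 2.08e-06). Ccr2, the chemokine receptor that brings monocytes out of the marrow, had 6535, 6518 and 4611 normalized reads in the grafts and 59.1, 196 and 83.4 in the colon day 4 libraries (log2 fold change -5.35 ± 0.81 (SE), adjusted p = 5.01e-06).

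The steepest falls of this list were at genes that were nearly absent from the colon. Chil3, a chitinase-like protein of monocytes and alternatively activated macrophages, had 9777, 9905 and 7696 normalized reads in the grafts and 7.17, 0 and 6.10 in the colon day 4 libraries (log2 fold change -10.45 ± 1.19 (SE), adjusted p = 9.29e-08). Hp, which encodes the haemoglobin scavenger haptoglobin, fell from 11719, 14474 and 13317 to 17.9, 26.7 and 14.2 normalized reads. F13a1, the A subunit of coagulation factor XIII, fell from 13507, 13958 and 8011 to 53.8, 80.0 and 28.5. Every colon library was below every graft at these 3 genes, as at Mmp8, a collagenase that was at least 199.8-fold lower, and Ifitm6, at least 237-fold lower. Smaller falls were seen at Fn1 (fibronectin, log2 fold change -6.03), Ms4a4c (-5.99), Vcan (versican, -3.69), Ly6c1 (-3.00), the chemokine Ccl6 (-1.57) and the guanine deaminase Gda (-1.37, which did not pass the threshold without colon day 4 replicate 1 or 3). Ly6c1 and Ly6c2 are near-identical, and the counting could have split their reads. The other two members did not pass the test. Plac8 had 6046, 5377 and 5899 normalized reads in the grafts and 5284, 6024 and 3205 in the colon day 4 libraries, overlapping ranges, and Thbs1, which encodes thrombospondin, had 278, 122 and 184 and 283, 219 and 254.

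Granule genes, which progenitors in the marrow transcribe, fell as a list, where 24.5% of all tested genes fell. All 12 tested members of a 13-gene list fell, with a median log2 fold change of -7.58 (-5.53 with the genes at the counting limit set to their bound), and their sum went from 13061, 10292 and 16531 to 111, 442 and 112 normalized reads. Mpo, the myeloperoxidase of azurophil granules, had 702, 188 and 615 normalized reads in the grafts and no read in any colon library, so that it was at least 73.9-fold lower. Elane, neutrophil elastase, had 615, 234 and 552 and no read (at least 68.8-fold lower). Both lost significance in DESeq2, with adjusted p = 0.139 and 0.143. The serine protease Prtn3 had 2799, 1645 and 3489.7 normalized reads in the grafts and 0, 17.8 and 4.07 in the colon day 4 libraries (log2 fold change -8.37 ± 0.65 (SE), adjusted p = 2.78e-10), and cathepsin G (Ctsg) was at least 105-fold lower. Cebpe, the C/EBP factor of granule gene transcription, had 230.2, 180.2 and 211 and no read (at least 30.5-fold lower), and the ficolin Fcnb was at least 35.7-fold lower. The alarmins S100a8 (-4.60) and S100a9 (-5.14), the siderophore-binding Lcn2 (-4.16), Ngp (-6.78) and Camp (-4.76, adjusted p = 0.152 in DESeq2) fell too, with the log2 fold changes given. Colon day 4 replicate 2 was the highest of the colon libraries at S100a8, S100a9, Ngp and Camp, with 205 normalized reads of S100a9 against 32.3 and 54.9.

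The granule genes are shown with the 250 bases of mm9 before the start of the counted transcript, because 3 of them fell to or near 0 together and Prtn3 and Elane are neighbours on chromosome 10. Each sequence runs 5′ to 3′ on the strand of its gene, and capitals mark a match of GAGGAA, the core letters bound by the myeloid factor PU.1, on either strand (TTCCTC on the other).
Prtn3: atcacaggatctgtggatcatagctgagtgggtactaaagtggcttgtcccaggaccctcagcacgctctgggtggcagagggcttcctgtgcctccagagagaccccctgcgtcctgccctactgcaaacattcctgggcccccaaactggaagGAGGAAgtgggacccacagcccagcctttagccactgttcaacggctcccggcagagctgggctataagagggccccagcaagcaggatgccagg
Elane: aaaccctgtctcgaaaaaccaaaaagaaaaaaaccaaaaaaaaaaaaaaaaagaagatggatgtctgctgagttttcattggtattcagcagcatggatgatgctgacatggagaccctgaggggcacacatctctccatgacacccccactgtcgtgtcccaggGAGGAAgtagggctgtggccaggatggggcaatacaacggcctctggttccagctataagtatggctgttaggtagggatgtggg
Mpo: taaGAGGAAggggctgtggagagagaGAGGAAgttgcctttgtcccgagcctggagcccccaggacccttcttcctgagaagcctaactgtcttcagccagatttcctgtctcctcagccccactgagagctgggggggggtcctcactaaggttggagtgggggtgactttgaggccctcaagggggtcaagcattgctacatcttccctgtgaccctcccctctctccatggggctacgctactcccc
The windows are chr10:79342162-79342411 and chr10:79348807-79349056, both on the plus strand, and chr11:87607036-87607285, also on the plus strand. GAGGAA was found in 8 of 13 windows of the granule list (61.5%) and in 22.9% of the 24343 windows of all genes. A letter pattern of C/EBP factors, TTGCNNAA, was in 5 of 13 against 8.80% of all. A match describes letters in the window and not a bound site.

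RNA shared by all leukocytes fell as well, where 24.5% of all tested genes fell. All 16 genes of a pan-leukocyte list fell, with log2 fold changes of -2.53 to -5.74 (median -4.30), and their sum was 97063, 107884 and 104271 normalized reads in the grafts and 2074, 4254 and 3609 at day 4, so that the mean at day 4 was 0.0321 times that of the grafts. Ptprc encodes CD45, the antigen by which the colon cells were gated. It had 5204, 6089.8 and 3826 normalized reads in the grafts and 156, 237 and 205 in the colon day 4 libraries (log2 fold change -4.31 ± 0.69 (SE), adjusted p = 1.13e-05). Itgam, which encodes the CD11b of both gates, had 2886, 4747 and 3989 normalized reads in the grafts and 109, 225 and 122 in the colon day 4 libraries (log2 fold change -4.32 ± 0.71 (SE), adjusted p = 1.68e-05). The actin regulators Coro1a (-5.13) and Lsp1 (-5.74) fell more and the tetraspanin Cd53 (-2.53) less. In bulk libraries, fewer cells of a type and less RNA per cell cannot be told apart.

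Genes of the intestinal epithelium took the opposite course. All 18 members of an epithelial list rose, against 35.9% of all tested genes. Their sum was 67.4, 40.7 and 43.6 normalized reads in the grafts and 190505, 190864 and 214903 at day 4, where it made up 3.04, 3.30 and 3.43% of the reads on genes. Krt19, a keratin of simple epithelia, had 2.81, 7.75 and 7.27 normalized reads in the grafts and 35869.8, 37286 and 38502 in the colon day 4 libraries (log2 fold change 12.82 ± 0.75 (SE), adjusted p = 8.77e-12). Lgals4, the galectin of the gut lining, had 28.1, 9.69 and 14.5 and 36137, 46064 and 44820.1 (log2 fold change 11.61 ± 0.78 (SE), adjusted p = 4.43e-11). Epcam, the epithelial adhesion molecule, was at least 993-fold higher at day 4, the immunoglobulin transporter Pigr at least 3130.3-fold higher and the intestinal homeobox factor Cdx1 at least 389-fold higher. The rise held within both dates that have a graft, at 9.46 and 9.34 for Krt19 in log2(normalized reads + 50). Krt19 lies on the minus strand at chr11:100002126-100007240 (mm9), and its upstream window chr11:100007241-100007490 is given as the epithelial counterpart of the myeloid windows, with a match of TTTATG, a pattern of the caudal factors, on the other strand in capitals.
Krt19: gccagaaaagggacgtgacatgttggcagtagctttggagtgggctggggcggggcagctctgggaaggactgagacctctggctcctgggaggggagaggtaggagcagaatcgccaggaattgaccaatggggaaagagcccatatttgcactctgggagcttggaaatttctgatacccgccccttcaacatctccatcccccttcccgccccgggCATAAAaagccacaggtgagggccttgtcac
TTTATG was found in 3 of 18 epithelial windows and in 9.77% of all windows. GAGGAA, which Krt19 did not hold, was found in 6 of 18 epithelial windows (33.3%), 5 of 10 goblet cell windows and 5 of 9 T cell windows.

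Genes of several cell types of the epithelium rose, where 35.9% of all tested genes rose and 24.5% fell. All 8 colonocyte genes rose, from sums of 5.61, 7.75 and 2.42 to 35237, 31893 and 29953 normalized reads, and Car1, the carbonic anhydrase of colonocytes, was at least 1005-fold higher. All 10 goblet cell genes rose, from 19.6, 7.75 and 2.42 to 77436, 69161 and 64342, and the gel-forming mucin Muc2 was at least 1824-fold higher. All 7 tested enteroendocrine genes rose from 0 in every graft to sums of 2072, 1829 and 1549.5. Genes of small intestinal enterocytes were far scarcer, at 1036, 892 and 809 normalized reads over 10 genes. Of the crypt stem cell list 4 of 6 rose, and its sum went from 33.7, 42.6 and 21.8 to 1409, 747 and 832. Of the Paneth cell list 4 of 6 rose, whereas Lyz1, a lysozyme of both Paneth cells and myeloid cells, fell from 26282, 33129 and 20628 to 462, 845 and 744. The Paneth cell defensin Defa24 had 0, 0 and 2.42 and 341, 759 and 599.9 normalized reads (at least 79.0-fold higher), and belongs to a family of near-identical copies whose reads could have been split.

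Stromal markers rose to lower sums, where 35.9% of all tested genes rose and 24.5% fell. All 6 tested fibroblast genes rose, from 5.61, 0 and 2.42 to 2918, 1945 and 3036, with the matrix proteoglycan Dcn at least 113-fold higher, and so did all 6 smooth muscle genes, all 7 endothelial genes and all 3 tested genes of enteric glia. The joining chain of antibodies, Jchain, had 5.61, 5.81 and 2.42 normalized reads in the grafts and 3642, 8393 and 6277 in the colon day 4 libraries and was at least 852-fold higher, while no other tested gene of the B and plasma cell list rose. Of the T cell list, 2 of 6 tested genes rose (33.3%), close to the 35.9% of all tested genes, and its sum reached 53.8, 91.9 and 77.3. Mast cell and tuft cell lists had no gene abundant enough for the test, with sums of 16.1, 23.7 and 26.4 and 34.1, 29.6 and 34.6. Kit, whose CD117 product excluded cells from the graft, had no read in the grafts and 96.8, 88.9 and 61.0 at day 4. Of the neutrophil list Ly6g rose (5.28) while Csf3r (-5.82) and Retnlg (-2.61), 2 other neutrophil genes, fell, and all 3 tested erythroid genes fell. Of 2 tested dendritic cell genes Flt3 fell.

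**Figure D2:**
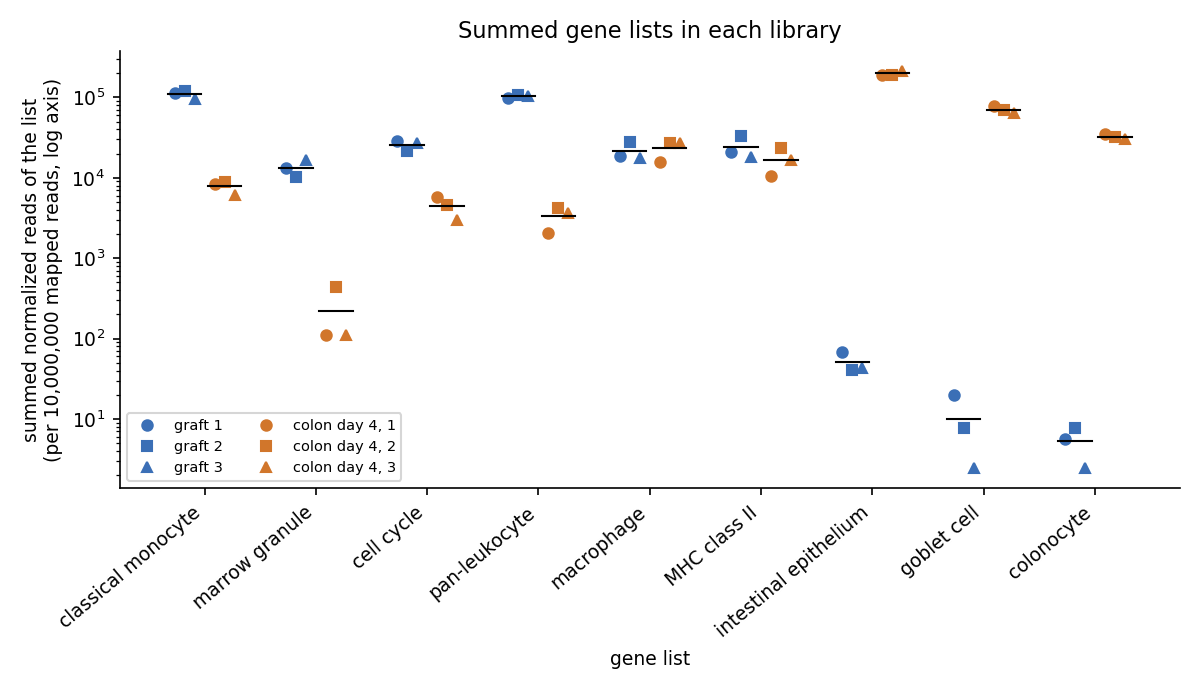
Summed normalized reads (per 10000000 mapped reads, log axis) of 9 gene lists in the 3 graft libraries (blue) and the 3 colon day 4 libraries (orange), with circles, squares and triangles for replicates 1, 2 and 3 and a black line at the mean of each group. The macrophage and MHC class II sums overlap between the groups, the pan-leukocyte sums fall and the epithelial, goblet cell and colonocyte sums rise without overlap.

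The 12 largest rises among genes whose higher group averaged 200 normalized reads or more were Ckmt1, Oit1, Tspan1, Spink4, Hao2, Saa1, Cldn7, Dmbt1, Sycn, Mptx1, Cldn3 and Sprr2a1. Cldn7 and Cldn3 are claudins of tight junctions, Spink4 is a protease inhibitor of goblet cells, Dmbt1 a mucin-like protein of the mucosal surface and Ckmt1 a mitochondrial creatine kinase. Ckmt1 had no read in any graft and 22873, 22356 and 19820.4 normalized reads at day 4 (at least 3026-fold higher), and Cldn7 was at least 2067-fold higher. Each of the 12 had at most 1 read in any graft library. Sprr2a1 shares most of its sequence with a neighbouring copy, so its count is uncertain. None of the 12 was on the macrophage list. Of the 12 largest falls, 8 were on the monocyte or granule lists, among them Chil3, Mpo, Elane, Fcnb, Mmp8, Ctsg and Cebpe, and the others were Serpinb10, Galnt9, AI839979 and Kcnk12. Serpinb10, a serine protease inhibitor of myeloid progenitors, had 904, 806 and 542 normalized reads in the grafts and none in the colon (at least 111-fold lower).

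Macrophage genes moved in both directions. Of 27 tested members, 14 rose (51.9%), 6 fell (22.2%) and 7 did not pass the test, with a median log2 fold change of 1.61. Of all tested genes 35.9% rose and 24.5% fell, so the share of falls was close to that of all genes. The sum was 18784, 27496 and 17799.9 and 15687, 26871 and 27326 normalized reads, with overlapping ranges. The C1q chains rose together. C1qa had 39.3, 36.8 and 14.5 normalized reads in the grafts and 1262, 3323 and 3235 in the colon day 4 libraries (log2 fold change 6.79 ± 0.88 (SE), adjusted p = 6.22e-07). C1qb had 39.3, 71.7 and 12.11 normalized reads in the grafts and 1089.8, 3492 and 3672 in the colon day 4 libraries (log2 fold change 6.41 ± 0.86 (SE), adjusted p = 1.07e-06). C1qc had 11.2, 15.5 and 21.8 normalized reads in the grafts and 568, 1488 and 1204 in the colon day 4 libraries (log2 fold change 6.39 ± 0.83 (SE), adjusted p = 6.23e-07). Colon day 4 replicate 1 was the lowest of the colon libraries at all 3 chains and was still above every graft. Within the 2 dates that include a graft, C1qa rose by 4.69 and 5.28 in log2(normalized reads + 50).

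The C1q genes lie in a row on the minus strand of chromosome 4, with C1qb at chr4:136436061-136442092, C1qc at chr4:136445717-136448829 and C1qa at chr4:136451831-136454759 (mm9). Their upstream windows are shown because the 3 genes rose by nearly the same factor from neighbouring starts, with GAGGAA or its complement in capitals as above.
C1qa: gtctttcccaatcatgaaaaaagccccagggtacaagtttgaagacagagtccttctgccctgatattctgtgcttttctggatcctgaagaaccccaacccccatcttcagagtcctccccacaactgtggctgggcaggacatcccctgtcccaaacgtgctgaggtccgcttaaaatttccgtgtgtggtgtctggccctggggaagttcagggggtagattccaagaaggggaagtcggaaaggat
C1qb: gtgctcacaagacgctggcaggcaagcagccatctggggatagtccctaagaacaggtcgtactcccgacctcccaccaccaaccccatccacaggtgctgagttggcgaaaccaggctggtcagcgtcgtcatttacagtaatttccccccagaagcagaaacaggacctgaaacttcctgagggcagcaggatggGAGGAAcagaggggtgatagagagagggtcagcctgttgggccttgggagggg
C1qc: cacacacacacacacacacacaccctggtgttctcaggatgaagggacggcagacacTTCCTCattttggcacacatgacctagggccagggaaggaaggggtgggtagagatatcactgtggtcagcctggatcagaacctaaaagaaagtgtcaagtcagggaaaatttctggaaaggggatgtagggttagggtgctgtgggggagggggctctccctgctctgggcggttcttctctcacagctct
The windows are chr4:136454760-136455009, chr4:136442093-136442342 and chr4:136448830-136449079, all read from the minus strand. C1qb and C1qc each held 1 match and C1qa none, and 14 of 28 windows of the macrophage list held it.

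Other macrophage genes that rose encode receptors and secreted factors. Pf4, a chemokine of platelets and macrophages, had 8.42, 1.94 and 0 and 333, 759 and 578 normalized reads (at least 77.7-fold higher, with 3 counts or fewer in each graft). The scavenger receptor Stab1 was at least 38.1-fold higher and the endocytic adaptor Dab2 at least 19.3-fold higher. Itgax, the CD11c integrin whose promoter drives DTR in the recipients' marrow, had 5.61, 23.3 and 12.11 normalized reads in the grafts and 77.1, 293 and 181 in the colon day 4 libraries (log2 fold change 4.01 ± 1.05 (SE), adjusted p = 0.00219). Mrc1, the mannose receptor CD206, rose from 44.9, 60.1 and 17.0 to 156, 243 and 148 (2.49 on the log2 scale), Ms4a7 by 3.10 and Nr1h3, the oxysterol receptor LXRα, by 4.66. Gas6, the ligand that bridges dying cells to TAM receptors, was at least 389-fold higher and the tetraspanin Cd81 rose by 5.30. Nr1h3, Gas6 and Cd81 did not follow the leukocyte RNA among the colon libraries, as given below. Which cells their RNA came from was not tested. The TAM receptor Axl (0.95) and the factor Maf (1.28) passed the threshold, but not in several alternative fits, among them scaling to library totals (adjusted p = 0.190 and 0.117).

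The genes that fell include the receptors by which macrophages are sorted. Csf1r, the CD115 of the graft's gate, had 4000.0, 5784 and 5207 normalized reads in the grafts and 475, 996 and 970.0 in the colon day 4 libraries (log2 fold change -2.26 ± 0.67 (SE), adjusted p = 0.00564). Fcgr1, the CD64 of the colon gate, had 679, 866 and 695 normalized reads in the grafts and 48.4, 154 and 159 in the colon day 4 libraries (log2 fold change -2.29 ± 0.65 (SE), adjusted p = 0.00394). Cx3cr1 had 1156, 996 and 877 normalized reads in the grafts and 179, 326 and 169 in the colon day 4 libraries (log2 fold change -1.81 ± 0.58 (SE), adjusted p = 0.0103), with GFP in place of 1 allele in every sample. Cd68 (-2.95), Adgre1, which encodes F4/80 (-2.57), and Trem2 (-2.03, adjusted p = 0.125 without colon day 4 replicate 1) fell too. Apoe had 5572, 11344 and 4836 normalized reads in the grafts and 4408, 7204 and 6847 in the colon day 4 libraries, with overlapping ranges. All 6 of these falls were smaller than the median fall of the pan-leukocyte genes. All 6 became rises when the libraries were scaled to those genes, where 96.0% of all tested genes were called higher.

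Of 8 tested MHC class II genes 2 were higher (25%), 2 lower (25%) and 4 not past the test, against 35.9% and 24.5% of all tested genes higher and lower. H2-Ab1, the β chain of I-A and an antigen of the colon gate, had 1258, 2157 and 547 normalized reads in the grafts and 2232, 7803 and 4405 in the colon day 4 libraries (log2 fold change 2.26 ± 0.73 (SE), adjusted p = 0.00999), and graft replicate 2 came within 1.5-fold of colon day 4 replicate 1. It did not pass without colon day 4 replicate 2 (adjusted p = 0.0725) or without graft replicate 3 (0.0561). H2-Eb1 had 337, 903 and 211 normalized reads in the grafts and 1326, 2982 and 2678 in the colon day 4 libraries (log2 fold change 2.64 ± 0.70 (SE), adjusted p = 0.00248). H2-Aa (1.23, adjusted p = 0.104) and the invariant chain Cd74 (1.37, adjusted p = 0.0715) did not pass. The peptide editor H2-DMa (-2.68) and cathepsin S (Ctss, -2.28), which trims the invariant chain, fell. Both were higher under the pan-leukocyte scaling, as were 96.0% of all tested genes.

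**Figure D3:**
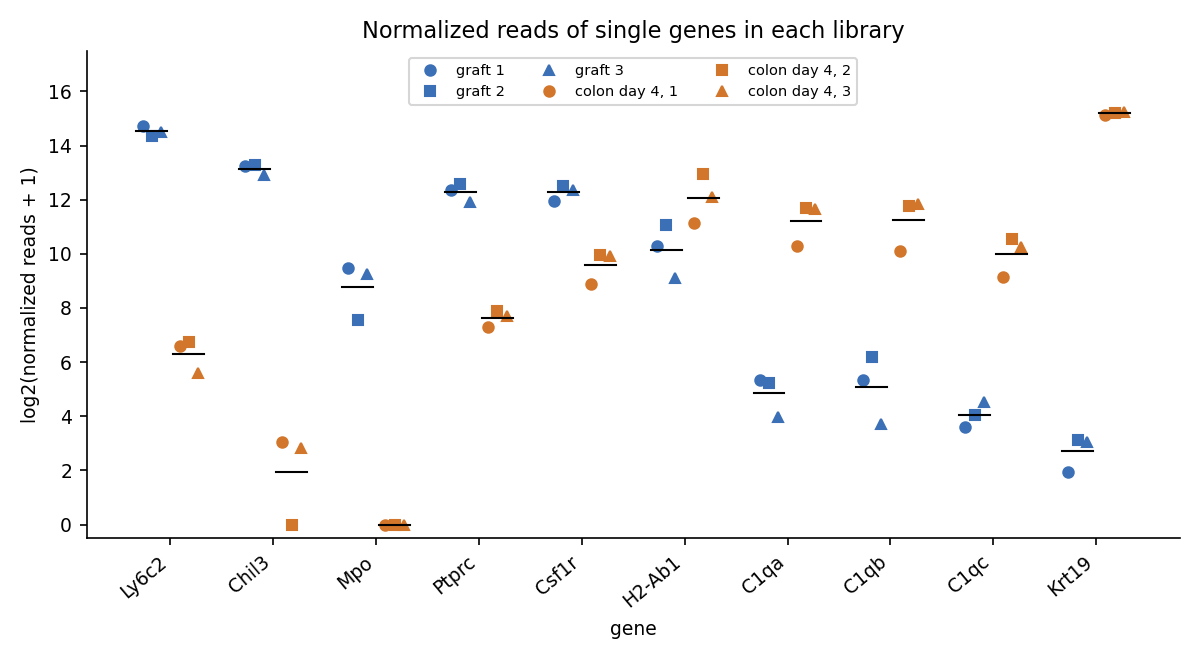
Log2 of normalized reads plus 1 (vertical axis) of 10 genes in the 3 graft libraries (blue) and 3 colon day 4 libraries (orange), with circles, squares and triangles for replicates 1, 2 and 3 and black lines at the group means of the plotted log2 values. In normalized reads, Ly6c2, Chil3, Mpo, Ptprc and Csf1r sit lower in every colon library, and C1qa, C1qb, C1qc and Krt19 sit higher in every colon library. Csf1r changes sign under pan-leukocyte scaling, as does Ptprc, which is itself a member of the pan-leukocyte list.

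The colon day 4 libraries differed in their leukocyte RNA, and some of the rising genes varied with it. Replicate 1 had 2074 pan-leukocyte normalized reads against 4254 and 3609 in replicates 2 and 3, while the epithelial sums were within 1.5-fold of each other. Among genes with a colon mean of at least 200 normalized reads, 5 of 6 pan-leukocyte genes were at least 1.5-fold higher in both replicates 2 and 3 than in replicate 1. The same held for 11 of 17 macrophage genes (median ratios 2.03 and 1.73) and 5 of 7 MHC class II genes, against none of 17 epithelial genes (median ratios 0.880 and 1.07), none of 8 colonocyte genes, none of 9 goblet cell genes and 43 of 2215 (1.94%) of all genes that rose. The 43 include C1qa, C1qb, C1qc, Pf4, Stab1, H2-Ab1 and H2-Eb1, and also Mgl2, a lectin of macrophages, the chemokine Cxcl16 and the DNase Dnase1l3. They also include Jchain, Rn45s and 10 genes named Defa, so the pattern was not limited to macrophage genes. Gas6 (2517, 2129 and 3725), Cd81 (1253, 972 and 1478) and Nr1h3 (212, 282 and 256) rose without it. With 3 libraries this is a description and was not tested.

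**Figure D4:**
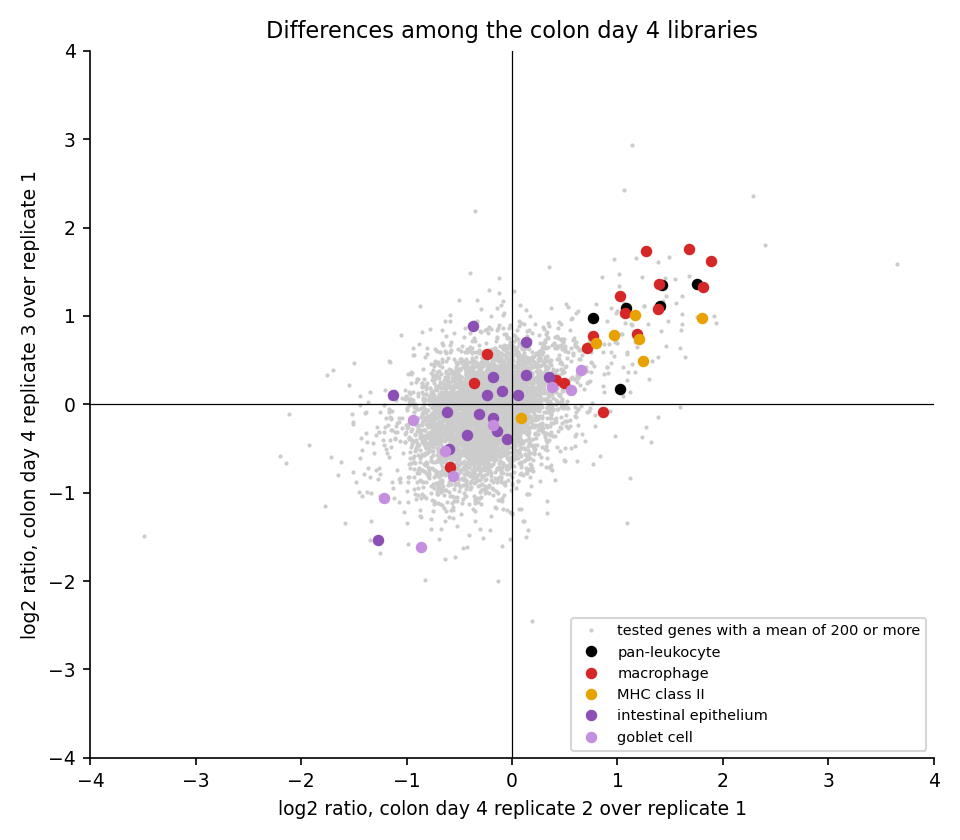
Log2 ratio of normalized reads in colon day 4 replicate 2 over replicate 1 (horizontal axis) and replicate 3 over replicate 1 (vertical axis) for tested genes with a colon mean of at least 200, with 5 gene lists in colour. Most pan-leukocyte, macrophage and MHC class II genes lie at the upper right, and the epithelial and goblet cell genes lie around 0 with the bulk of genes.

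Set against the pan-leukocyte genes, macrophage and MHC class II genes were higher at day 4, as were 96.0% of all tested genes. Part of the monocyte and granule genes stayed lower. With each library scaled to these 16 genes, the median of all tested genes moved from 0.21 to 4.97 on the log2 scale, 96.0% of genes were called higher and 46 (0.388%) lower. This scaling asks how a transcript changed per unit of leukocyte RNA. All 27 macrophage genes, all 8 MHC class II genes and all 18 epithelial genes were among the higher ones, shares close to that of all tested genes, and the medians of the macrophage and MHC class II genes were 6.01 and 5.39. Csf1r (2.34 ± 0.52 (SE), adjusted p = 9.61e-05), Fcgr1 (2.26 ± 0.51 (SE), adjusted p = 1.08e-04), Cx3cr1 (2.82), Cd68 (1.55), Adgre1 (2.12), Trem2 (2.41) and H2-DMa (1.96) thus changed sign. The values of these genes lay below the median of 4.97 of all tested genes. Ccl6, Gda, Plac8 and Thbs1 of the monocyte list were called higher.

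Part of the monocyte and granule genes fell further than the leukocyte RNA did. The 46 genes include 7 of 16 monocyte genes and 6 of 13 granule genes, and none of the macrophage list. Ly6c2 changed by -3.05 ± 1.03 (SE), adjusted p = 0.00568, and by -5.29 to -2.08 when each of the 16 genes served as the reference by itself. It made 27.5, 19.2 and 22.5 reads per 100 pan-leukocyte reads in the grafts and 4.58, 2.51 and 1.30 at day 4. The other monocyte genes included Chil3 (-5.74 ± 1.40 (SE), adjusted p = 2.66e-04), Hp (-4.36 ± 0.98 (SE), adjusted p = 1.06e-04), F13a1, Mmp8 and Ifitm6, and the granule genes were Mpo, Elane, Prtn3 (-3.82 ± 0.96 (SE), adjusted p = 3.98e-04), Ctsg, Fcnb and Cebpe. Ccr2 (-0.82 ± 0.59 (SE), adjusted p = 0.179) and Fn1 (-1.25 ± 0.85 (SE), adjusted p = 0.155) did not pass, nor did S100a8 (-0.09) and S100a9 (-0.69). Beyond the lists, the 46 hold the sialomucin Spn, the adhesion ligand Selplg and its fucosyltransferase Fut7, the integrin chain Itgb7, the histone-modifying enzyme Padi4, the erythroid and myeloid factor Nfe2 and the leukotriene genes Alox5ap and Ltb4r1, named after their values were seen.

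C1qa lay far above 0 on this scale. It rose by 11.27 ± 0.85 (SE), adjusted p = 1.24e-11, and by 9.31 to 12.52 over the 16 references. Per 100 pan-leukocyte reads it had 0.0405, 0.0341 and 0.0139 reads in the grafts and 60.8, 78.1 and 89.6 at day 4, so that the colon libraries lay closer together on this scale than in normalized reads. H2-Ab1 had 1.30, 2.00 and 0.525 and then 108, 183 and 122 (6.75 ± 0.78 (SE), adjusted p = 4.46e-09).

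**Figure D5:**
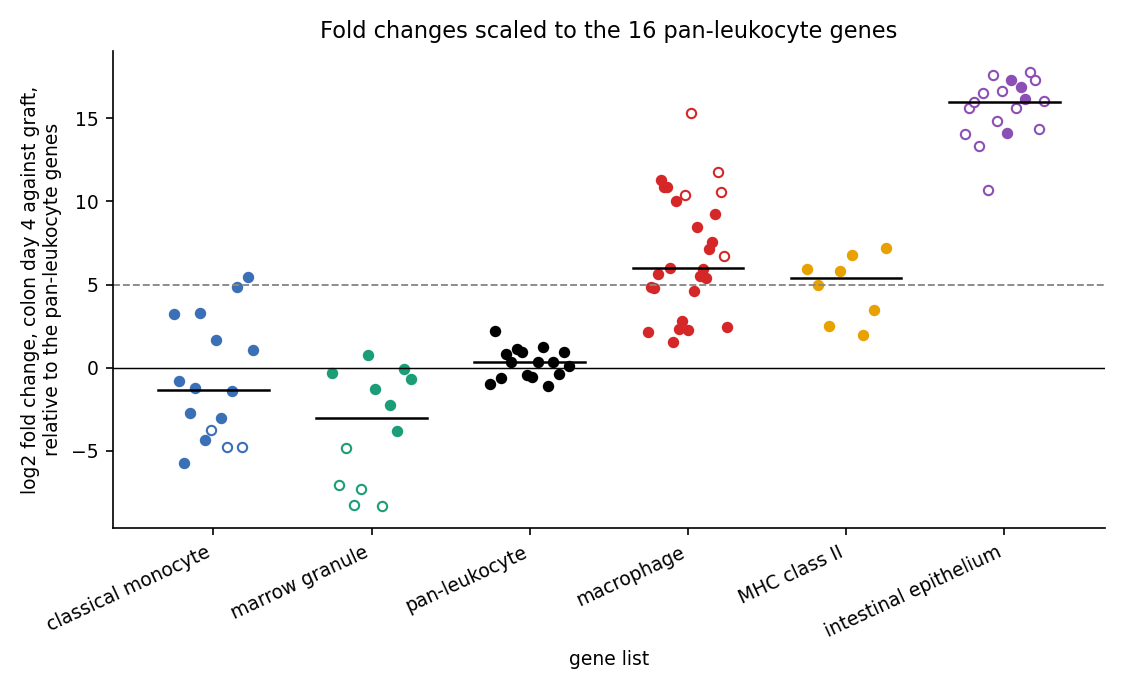
Log2 fold change of colon day 4 against graft with libraries scaled to the 16 pan-leukocyte genes (vertical axis) for the tested members of 6 gene lists, with a black bar at each median, open circles for genes with 3 counts or fewer in every library of a group, whose fitted values are no bounds, and a dashed line at the median of all tested genes. Most granule genes and part of the monocyte genes lie below 0, the macrophage and MHC class II genes lie above 0 around the dashed line, and the epithelial genes lie far above it.

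Transcription factors were called in both directions. Spi1, which encodes PU.1, had 2700.3, 2699 and 3332 normalized reads in the grafts and 106, 210.5 and 173 in the colon day 4 libraries (log2 fold change -3.81 ± 0.68 (SE), adjusted p = 4.56e-05), and its change against the pan-leukocyte genes did not pass (0.81 ± 0.48 (SE), adjusted p = 0.103). Of the Cebp family 4 of 6 fell and none rose, with Cebpb at -3.57 (pan-leukocyte scaled 1.14, adjusted p = 0.0839). Of the 9 genes of the Irf family 1 rose and 5 fell, which were Irf5 (-5.28), Irf8 (-2.34), Irf4, Irf7 and Irf9. Of the E2f family, cell cycle factors, 6 of 8 fell and E2f5 rose. All 3 tested Egr genes, immediate early factors, rose, with Egr1 at 25.3, 11.6 and 19.4 and 3463, 3012 and 3721 normalized reads. Of 14 myeloid factors 5 rose (35.7%) and 6 fell (42.9%), against 35.9% and 24.5% of all tested genes. Klf4 had 5695, 4563 and 4083 normalized reads in the grafts and 10435, 7957 and 9311 in the colon day 4 libraries (log2 fold change 1.28 ± 0.39 (SE), adjusted p = 0.00697) and Pparg had 25.3, 44.6 and 19.4 and 443, 377 and 431 (adjusted p = 7.51e-07, higher in 3 of 3 libraries), and neither followed the difference in leukocyte RNA among the colon libraries. Colonic epithelium also expresses Klf4 and Pparg, and the part of its RNA in these values was not tested.

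Genes of the cell cycle fell and several inflammatory genes rose. Of all tested genes 35.9% rose and 24.5% fell, the shares to set beside the counts that follow. All 20 cell cycle genes fell, their sum going from 28382, 21689 and 27159.9 to 5739, 4628 and 2963 normalized reads, with Mki67 at -2.30 and the mitotic kinase Aurkb at -3.72. Against the pan-leukocyte genes 18 were called higher, as were 96.0% of all tested genes. Of 12 tested inflammatory genes 7 rose (58.3%) and none fell. Il1b, the interleukin-1β gene, had 157, 63.9 and 89.6 normalized reads in the grafts and 851, 1405 and 1017 in the colon day 4 libraries (log2 fold change 3.77 ± 0.71 (SE), adjusted p = 8.67e-05), whereas Tnf had 166, 145 and 182 and 84.2, 86.0 and 73.2 and did not pass. Il1a, Il10 and the nitric oxide synthase Nos2 rose, the last at least 4.56-fold higher. Only 2 genes of the inflammatory list averaged 200 normalized reads or more at day 4. The paper describes Il10 as almost absent from engrafted macrophages. It also reports that these cells lacked pro-inflammatory transcripts such as Il1b and Tnf, unlike cells of colitic mice, which were not analysed here. In the TGF-β pathway the ligand Tgfb1 fell by 2.85 on the log2 scale, the receptor Tgfbr2 (0.95) and the inhibitors Smad6 (2.18), Smad7 (2.74) and Skil (1.86) rose, and 5 of 10 did not pass. The share that rose (40%) was close to that of all tested genes. Of 7 tested chemokine receptors Ccr2, Cx3cr1 and Cxcr4 fell and Ccr9 rose. Of 11 tested genes of Toll-like receptor signalling 5 fell (Tlr2, Tlr6, Tlr8, Tlr13 and Myd88) and 2 rose (Tlr1 and Tlr3). Of 15 tested genes of lysosome and uptake 9 fell and 3 rose, the latter being Ctsl, the fatty acid receptor Cd36 and the cholesterol exporter Abca1. Under pan-leukocyte scaling Cebpe was called lower, by a fitted value that is no bound. No other tested gene of these lists of factors, cell cycle, inflammation, TGF-β, receptors and lysosome was called lower.

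The ileal progeny of day 4 (4 libraries from recipients of the same kind) lay above the colon in the pan-leukocyte sum and below it in the sum of the 18 epithelial genes, without overlap. The pan-leukocyte sum was 5192 to 18872 normalized reads in the ileum and the epithelial sum 44698 to 176204. The colonocyte sums overlapped, at 4002 to 67489.5 in the ileum and 29953 to 35237 in the colon. Sums of the Paneth cell list (3463 to 63877) and of the small intestinal enterocyte list (1041 to 4877) were higher in every ileum library than in any colon library. In the same fit 62 of 11842 genes (0.524%) were higher and 315 (2.66%) lower in the colon than in the ileum at day 4, and these counts depended on single libraries, with 0 and 0 without colon day 4 replicate 1, colon day 4 replicate 3 or ileum day 4 replicate 1 (551 to 763 and 1130 to 1351 at an unadjusted p under 0.05), and 813 and 1276 without ileum day 4 replicate 2, all in edgeR. DESeq2 gave 274 and 806. Of the 16 pan-leukocyte genes 8 were lower in the colon and of the 27 macrophage genes 4, while 1 of the 8 MHC class II genes and none of the 18 epithelial or 16 monocyte genes was lower. None of the 18 epithelial genes was called higher in the colon either. In the colon at days 8 and 12 the pan-leukocyte sums were 2083 to 5703 and 2105 to 6841, ranges that overlap that of day 4, and the macrophage sums 23621 to 71487 and 30839.5 to 93952 against 15687 to 27326 at day 4. C1qa reached 2112 to 7735 normalized reads at day 12.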

How the data were processed

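RNA was captured with oligo(dT), made into libraries by a derivation of MARS-seq and sequenced on a NextSeq 500, and the authors mapped reads to mm9 with hisat (version 0.1.6), kept unique alignments and counted sense reads on exons with HOMER. The deposited values are raw read counts per gene, and whether molecular identifiers were collapsed is not given in the sources used here. Normalized reads are counts per 10000000 mapped reads, the total in the table's header. Genes reaching 50 normalized reads in 3 or more of 25 libraries (11842 of 24411) were tested with edgeR (4.0.16) quasi-likelihood fits over all 7 groups with TMM scaling and Benjamini-Hochberg adjustment, without the colon day 8 library that the study left out. A threshold of 0.05 was used. Alternatives were DESeq2 (1.42.0), limma (3.58.1) on log2(normalized reads + 50 or + 1), other scalings, filters and sample sets, and leaving out each replicate.

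The fit was tested on simulated counts with 200 changed genes among 11440. It recovered 27% of changes of 1 on the log2 scale and 83% of changes of 2, with 6 false calls. Far more genes differed in these data, so the simulation does not check the scaling under such a shift. Promoter windows are 250 bases of mm9 before the counted transcript's start. The gene lists (337 genes in 35 lists) and members were chosen with earlier results of these data known. Named genes were the list genes and the 12 largest rises and falls past the threshold whose higher group averaged 200 normalized reads or more and whose groups did not overlap. The CX3CR1-DTR recipients were not analysed here, and 2 of the named genes are not reported here. Libraries held 1951932 to 3639328 reads on genes. By their mapped totals, 1 read stood for 1.79 to 2.96 normalized reads.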

Additional observations from a re-analysis of the deposited data

Results flagged for a closer look

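Among the genes named above, 8 differed between the colon and the ileum at day 4 (edgeR, log2 fold change of colon against ileum with adjusted p under 0.05). They were Cebpe (-5.52), Lyz1 (-2.85), Csf3r (-2.71), Ptprc (-2.45), Apoe (-2.38), Cx3cr1 (-2.23), Coro1a (-2.20) and Maf (-1.75). All 8 were lower in the colon, where the pan-leukocyte sum was lower as well, and the part of that difference in these values was not tested. With the colon and ileum groups fitted alone, no gene passed the threshold in edgeR (453 higher and 1072 lower at an unadjusted p under 0.05, and 274 and 806 adjusted in DESeq2 over all groups). Of the summed pan-leukocyte, epithelial and macrophage lists in the 4 ileum day 4 libraries, the macrophage list had 1 library far from the others, at 30653 normalized reads against a median of 87167. This gap was flagged by a rule among several lists, and how often chance gives such a gap was not tested.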

How the results depend on the processing

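For the graft and colon day 4, the counts of 4252 higher and 2897 lower genes stayed within 1.5 times in every alternative but pan-leukocyte scaling, which gave 11367 and 46. The split moved most otherwise with limma at a pseudocount of 50 (3033 higher, 3819 lower) and library totals (3527 and 3763), and leaving out each replicate gave 3840 to 3983 and 2496 to 2734. With the experiment, read from the dates, as a replicate block the counts were 4218 and 2889. Deviations of the libraries of experiments 2 and 3 did not go together in the graft and the colon (Pearson r = -0.14 across 11842 genes, which are not independent), so the dates are not treated as pairs, and the block changed the call of Axl and Maf and the sign of Apoe (-0.21) only.

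Under pan-leukocyte scaling these log2 fold changes turned positive: Ccl6 3.25, Ly6c1 1.65, Gda 3.29, Vcan 1.06, Lcn2 0.75, Csf1r 2.34, Cx3cr1 2.82, Fcgr1 2.26, Cd68 1.55, Adgre1 2.12, Trem2 2.41, H2-DMa 1.96, Ctss 2.48, Ptprc 0.35, Itgam 0.31, Cd53 2.20, Spi1 0.81, Irf8 2.43, Cebpb 1.14, Tnf 4.06, Mki67 2.44 and Aurkb 1.16. This follows from the shift of the median by the scaling. Plac8 and Apoe, neither called, changed sign with library totals (-0.26 and -0.24), limma at a pseudocount of 1 (-0.30 and -0.16) or 50 (-0.30 and -0.16) and when single replicates were left out (-0.18 to 0.34 and -0.10 to 0.57). Of 104 named genes, 95 kept direction and side of the threshold without each replicate in which they were tested. Without a graft library 14 were not tested, since the filter needs 3 libraries.

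For the colon against the ileum at day 4, the counts of 62 higher and 315 lower genes were 274 and 806 with DESeq2, 2 and 5 with 26 libraries, 0 and 0 with those groups alone (453 and 1072 at an unadjusted p under 0.05), 508 and 757 with the replicate block, 117 and 87 with limma at a pseudocount of 1, 377 and 108 at 50, 8993 and 34 with pan-leukocyte scaling, and 121 lower with library totals. Without the ileum libraries of experiment 1, chosen after seeing the data, they were 1530 and 1537. Leaving out each replicate gave 0 to 813 higher and 0 to 1276 lower. The cause was not tested.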
